A study of Drosophila melanogaster with 8 samples.

Results

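Troponin C is the calcium-binding subunit of the troponin complex on the thin filament of striated muscle, and calcium binding to it lets troponin I and tropomyosin move so that myosin can reach actin. Drosophila melanogaster makes troponin C from a family of genes used by different muscles. TpnC4 encodes the main form of the indirect flight muscle, where it is tied to stretch activation, and TpnC41C a form of adult flight and jump muscle. TpnC73F and TpnC47D encode forms of the larval body wall and of adult muscles other than flight muscle, and TpnC25D is a further member of the family.

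The members were the 5 genes TpnC4, TpnC41C, TpnC47D, TpnC73F and TpnC25D, taken by symbol from spots that the platform's probe table pairs with exactly 1 gene. Of these 5, TpnC4, TpnC41C and TpnC73F had 1 spot each and were measured, among 10658 genes in all. TpnC47D and TpnC25D had no spot named for them in that table and were not analysed here, so the comparison of flight muscle forms with larval and general forms rested on TpnC4 and TpnC41C against TpnC73F alone.

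The study hybridised adult RNA and larval RNA of Canton S, a wild-type strain, against each other on 8 spotted arrays, with adults in channel 1 on 4 arrays (replicates 2, 4, 5 and 7) and larvae in channel 1 on the other 4 (replicates 1, 3, 6 and 8). Adults and larvae were each a mixture of stages, with no treatment, allele, sex or age given. The whole animal was the source, so fewer muscle cells and less RNA per muscle cell cannot be told apart. Per the labels, every array was a separately processed portion of one homogenate made for gauging technical error, so the p-values rest on technical spread alone.

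Each value below is a log2 ratio between the 2 stages, centred on the array's median of gene spots and with its sign reversed where adults were in channel 1, here called the turned ratio. No source used here names the channel on top of the ratio. It is therefore not settled which stage the positive side stands for, and results are given by side. As landmarks, the list of larval glue proteins, made by the salivary glands of late larvae, lay on the negative side, where 4 of its 6 measured genes passed an adjusted p of 0.05 and 0 passed on the other, with Sgs1 at -2.38 ± 0.76 (SD, n = 8 arrays, as for every SD below), ng3 at -1.58 ± 0.68, Sgs5 at -1.45 ± 0.60 and ng2 at -1.01 ± 0.43. Of 3 measured genes of the adult yolk and eye list, the yolk protein genes Yp1 and Yp2 passed as positive, at 1.17 ± 0.40 for Yp1 and 0.75 ± 0.28 for Yp2, whereas Yp3, at 0.02 ± 0.11, did not pass. With values as deposited, Yp1 alone passed on the positive side, Yp2 stood at 0.32 without passing and Yp3 passed on the negative side at -0.41. Beside these counts, 29.2% of all genes passed as positive and 27.8% as negative, or 9.76% and 56.8% as deposited. No larval serum protein gene of the 4 listed and no opsin gene of the yolk and eye list was measured.

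The first question was how far each troponin C gene differed between the stages. TpnC4 and TpnC41C, the flight muscle genes, were both far to the positive side on every array, and TpnC73F, the general gene, lay near 0 with wide spread. In the limma fit of all genes, 2 of the 3 measured members passed a Benjamini-Hochberg adjusted p of 0.05, both on the positive side. Of all 10658 genes, 57.0% passed that threshold, 29.2% as positive and 27.8% as negative, so passing it was common here, and a call alone says little about a member. The same 2 members passed on the positive side when arrays were centred on all spots, where 54.1% of genes passed (19.3% positive, 34.8% negative), and without replicate 7, where 58.9% did (30.1% positive, 28.8% negative).

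TpnC4 had turned ratios of 3.88, 4.01, 3.99 and 4.48 on the arrays with adults in channel 1 (replicates 2, 4, 5 and 7) and of 3.58, 4.43, 3.65 and 2.91 on those with larvae in channel 1 (replicates 1, 3, 6 and 8). All 8 arrays were positive, replicate 8 was the lowest, and both orientations overlapped. The mean of 3.87 ± 0.50 is a 14.6-fold difference between the stages, with a limma adjusted p of 4.97e-09, and 9 of the 10658 genes had a larger mean ratio. Of all genes, 22.3% were positive on all 8 arrays and 19.3% negative on all 8.

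The deposited ratio of every spot was a quotient of 2 whole numbers, which a search recovered in lowest terms, so that each is a lower bound of the number behind it. For TpnC4, the pair on the positive and negative side was 885 and 76, 6883 and 412, 9397 and 630, and 8905 and 701 on replicates 2, 4, 5 and 7. It was 7193 and 712, 2933 and 186, 1181 and 142, and 1773 and 479 on replicates 1, 3, 6 and 8. The smaller number was on the same side on all 8 arrays, whichever channel held the adults.

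TpnC41C had turned ratios of 1.95, 2.52, 2.04 and 1.92 on replicates 2, 4, 5 and 7, and of 1.37, 2.64, 1.57 and 1.48 on replicates 1, 3, 6 and 8. Replicate 3 stood above the other 3 arrays with larvae in channel 1, and all 8 values were positive. The mean was 1.94 ± 0.47, a 3.83-fold difference with a limma adjusted p of 8.94e-07, and 140 genes had a larger mean ratio. Its highest value, 2.64, was below the lowest of TpnC4, 2.91, so the 2 flight muscle genes did not overlap over the arrays.

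TpnC73F had turned ratios of -0.44, -0.64, -0.41 and 1.62 on replicates 2, 4, 5 and 7, and of -0.87, -0.09, -0.14 and 0.55 on replicates 1, 3, 6 and 8. Thus 6 arrays were negative and 2, replicates 7 and 8, were positive, and the mean of -0.05 ± 0.80 did not pass (limma adjusted p = 0.863). Only 1.03% of genes had a larger residual SD than its 0.86, against a median of 0.30 over all genes. Before centring, the recovered whole numbers of replicate 7 were 2152 on the positive side and 1229 on the other. The negative side was larger on the other 7 arrays, from 2065 against 1494 on replicate 8, which is positive only after centring, to 3445 against 1596 on replicate 1.

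The result for TpnC73F depended on the centring. As deposited, with no centring, it was negative on 7 of 8 arrays with a mean of -0.49 ± 0.56 and passed the threshold (adjusted p = 0.0204), while the median of all genes stood at -0.45 on that scale and 66.6% of genes passed, 9.76% positive and 56.8% negative. Without replicate 7 it was at -0.32 with an adjusted p of 0.0624. TpnC4 and TpnC41C passed under all 22 alternatives, with ratios from 3.43 to 4.09 and from 1.499 to 2.11. Among the 22, the median over arrays kept the adjusted p of the fit of all 8 arrays, so its call was fixed in advance.

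**Figure D1:**
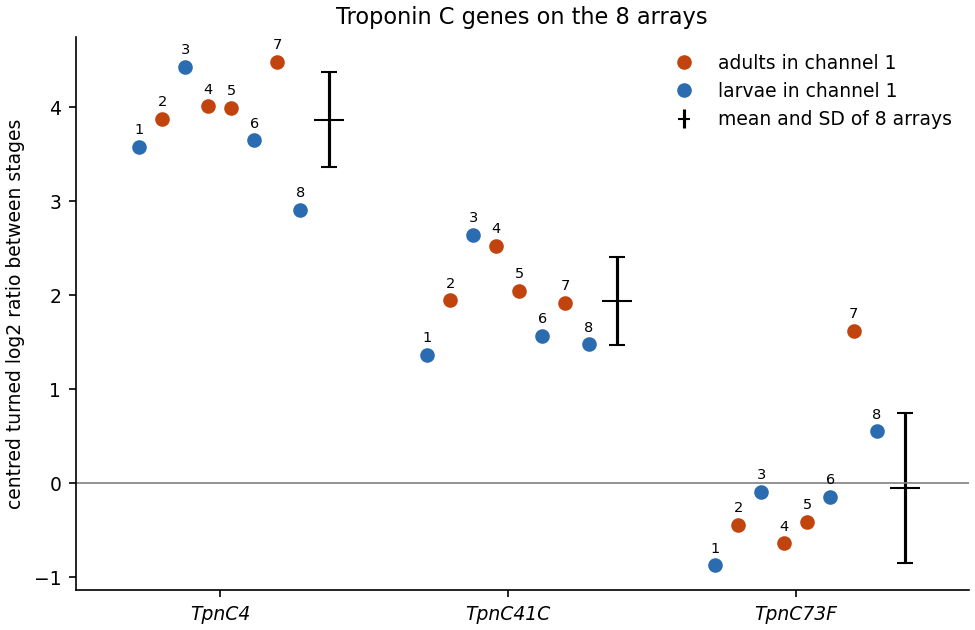
Centred turned log2 ratio between the stages (vertical axis) of the 3 measured troponin C genes on each of the 8 arrays, numbered by replicate and coloured by the stage in channel 1, with the mean and SD over 8 arrays as a bar. TpnC4 lies between 2.91 and 4.48 and TpnC41C between 1.37 and 2.64, while TpnC73F lies between -0.87 and 1.62 with replicates 7 and 8 above 0.

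The dye orientation did not pass as a term for any member, as for 0 of all 10658 genes in limma, so this says nothing particular to the members. TpnC4 averaged 4.09 ± 0.27 with adults in channel 1 and 3.64 ± 0.62 with larvae in channel 1 (SD, n = 4 arrays each), TpnC41C 2.11 ± 0.28 and 1.76 ± 0.59, and TpnC73F 0.03 ± 1.06 and -0.14 ± 0.58. The limma adjusted p of the dye column was 0.913 for TpnC4 and TpnC41C and 0.962 for TpnC73F. Taken alone, each orientation gave TpnC4 and TpnC41C past the threshold on the positive side.

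The second question was whether the members differed from one another, which was tested on the difference of 2 ratios within each array, where the centring cancels. TpnC4 exceeded TpnC73F by 4.32, 4.65, 4.41 and 2.86 on replicates 2, 4, 5 and 7 and by 4.45, 4.52, 3.79 and 2.36 on replicates 1, 3, 6 and 8. The mean of 3.92 ± 0.86 means that the stage ratio of TpnC4 was 15.1 times that of TpnC73F. Replicates 7 and 8 gave the smallest differences, and all 8 were above 0.

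TpnC41C exceeded TpnC73F by 2.38, 3.16, 2.46 and 0.30 on replicates 2, 4, 5 and 7 and by 2.24, 2.73, 1.71 and 0.93 on replicates 1, 3, 6 and 8. Again all 8 differences were above 0 and the smallest came from replicates 7 and 8, with a mean of 1.99 ± 0.96, or 3.97 times. TpnC4 exceeded TpnC41C by 1.93, 1.49, 1.95 and 2.56 on replicates 2, 4, 5 and 7 and by 2.21, 1.79, 2.08 and 1.43 on replicates 1, 3, 6 and 8, with a mean of 1.93 ± 0.37, or 3.81 times. That pair had the narrowest spread of the 3.

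An exact two-sided sign-flip permutation test over the 8 arrays gave p = 0.00781 for each of the 3 pairs, also after Benjamini-Hochberg adjustment over the 3 pairs, and this is the smallest p that 8 arrays allow. Without replicate 7 the differences were 4.07, 2.23 and 1.84 for the pairs in the order above, each with p = 0.0156 by the same exact test, the smallest that 7 arrays allow. The order of the stage ratios was therefore TpnC4, TpnC41C, TpnC73F on every array. The test reaches its smallest p whenever all arrays agree in sign, so it does not measure the size of a difference against its spread. The arrays are technical replicates, so it covers technical spread alone. The values are differences in stage ratio and say nothing of which gene gave more RNA, since each gene was read by a different probe.

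**Figure D2:**
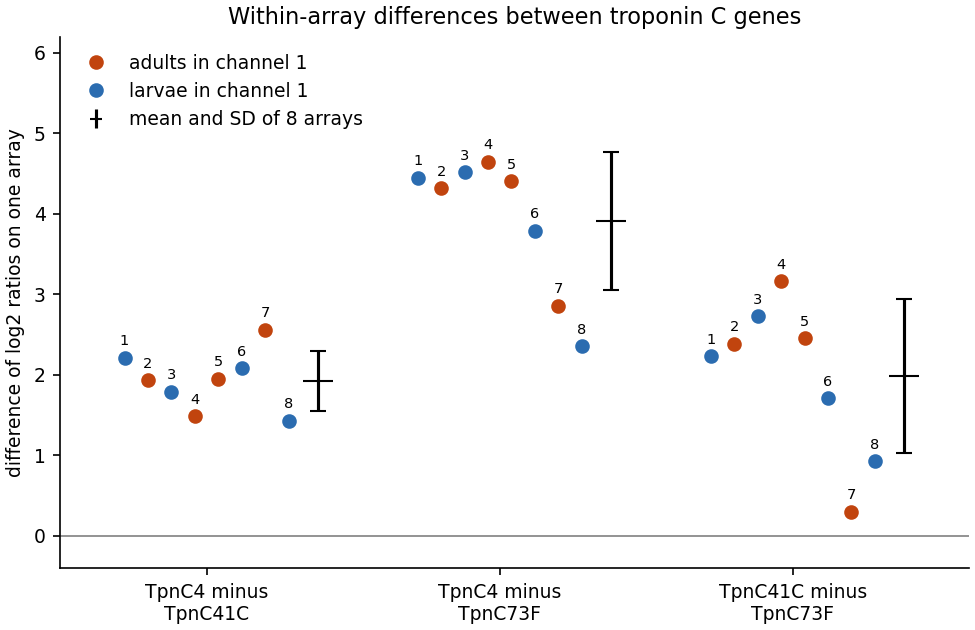
Difference of the log2 ratios of 2 troponin C genes on the same array (vertical axis) for the 3 pairs, with arrays numbered by replicate and coloured by the stage in channel 1, and the mean and SD over 8 arrays as a bar. Every difference lies above 0, and replicates 7 and 8 give the smallest differences from TpnC73F, down to 0.30 for TpnC41C.

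Troponin C works on the thin filament with troponin T, troponin I, tropomyosin and actin, and 5 of 9 listed partner genes were measured. Of these 5, the 3 actin genes Act88F, Act79B and Act87E passed as positive (2 as deposited, where Act87E stood at 0.33 with an adjusted p of 0.103) and 0 as negative. The share over all genes was 29.2% positive and 27.8% negative, or 9.76% and 56.8% as deposited. The median ratio of the 5 was 0.76, against -0.01 over all genes. It was 0.49 without replicate 7, and 0.33 as deposited, against -0.45 over all genes. With adults in channel 1 alone, Act88F remained past the threshold, while Act79B (0.85, adjusted p = 0.0837) and Act87E (0.52, adjusted p = 0.324) did not pass. After a loess curve against brightness, a trend of the ratio with spot brightness removed on each array, up stood on the negative side past the threshold at -0.36 (adjusted p = 0.00143), and Act88F and Act79B still passed as positive with lower ratios of 0.65 and 0.54.

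Act88F, the actin of the indirect flight muscle, had 0.77, 0.81, 0.92 and 2.70 on replicates 2, 4, 5 and 7 and 1.24, 2.18, 1.94 and 2.53 on replicates 1, 3, 6 and 8. All were positive, with replicates 7 and 8 highest, and the mean was 1.64 ± 0.80 (limma adjusted p = 6.83e-05). Act79B, an actin of adult leg and jump muscle, was at 1.24 ± 0.80 (adjusted p = 0.000386), and Act87E, an actin of larval and adult muscle, at 0.76 ± 0.82 (adjusted p = 0.0138), or 0.49 without replicate 7. On every array the ratio of TpnC4 was above that of all 5 partners, by 2.23 ± 0.95 for Act88F and by 3.45 ± 1.02 for up.

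The troponin T gene up and the tropomyosin gene Tm2 serve many muscles, and neither passed, at 0.41 ± 0.91 and 0.40 ± 0.94 (limma adjusted p = 0.197 and 0.219). Without replicate 7 they were at 0.13 and 0.097. The 3 spots of up gave 0.46, 0.37 and 0.42. Tm2 had -0.24, -0.43, -0.24 and 2.15 on replicates 2, 4, 5 and 7 and -0.43, 0.56, 0.47 and 1.38 on replicates 1, 3, 6 and 8, so that it, like TpnC73F, was highest on replicates 7 and 8.

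Set against these genes within each array, in a comparison chosen after their values were seen and given without a test, TpnC73F was lower than up on all 8 arrays by a mean difference of -0.47 ± 0.24 and lower than Tm2 on all 8 by -0.46 ± 0.24. The SD of these differences was far below the SD of 0.80 to 0.94 of each gene alone. The order with up did not hold after the loess curve, where up was at -0.36 and TpnC73F at -0.15. Tm2, at 0.22 there, stayed above TpnC73F. TpnC41C differed from up by 1.52 ± 1.08 and from Act88F by 0.30 ± 1.00, being above up on 6 arrays and above Act88F on 5.

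**Figure D3:**
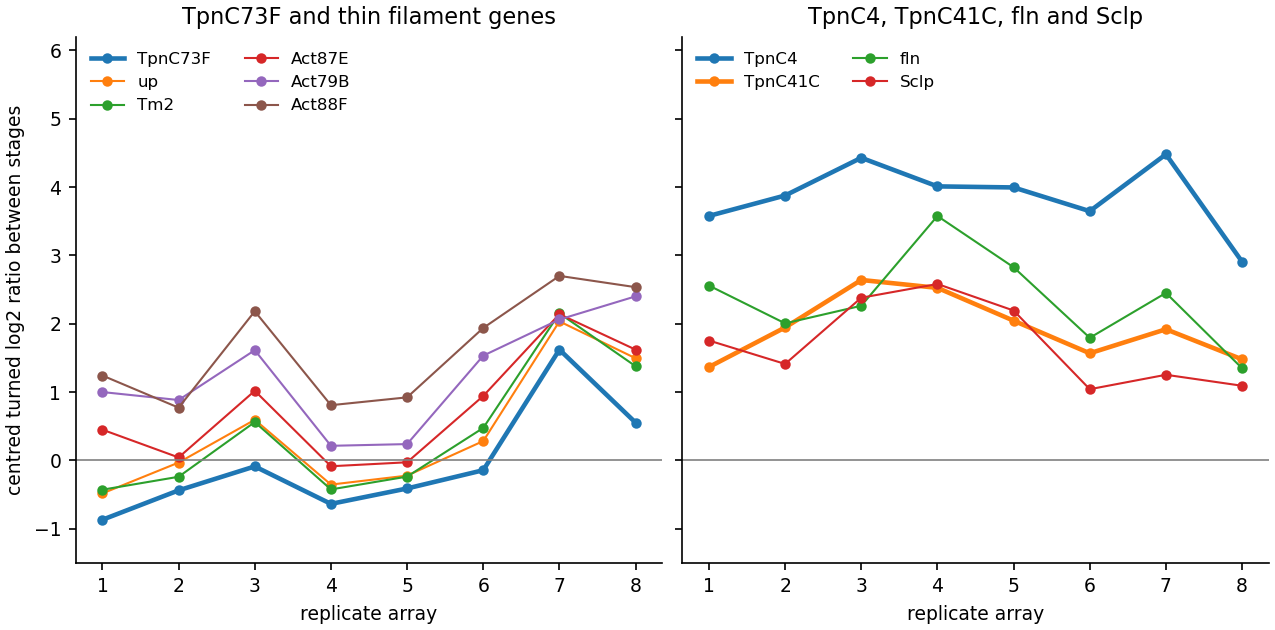
Centred turned log2 ratio (vertical axis) on replicate arrays 1 to 8 (horizontal axis, which has no order), with TpnC73F and 5 thin filament genes on the left and TpnC4, TpnC41C, fln and Sclp on the right, where lines only join the values of one gene. On this scale, without the loess curve, TpnC73F lies below the 5 thin filament genes on all 8 arrays. It peaks with up and Tm2 on replicate 7, while TpnC41C is highest on replicates 3 and 4.

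Values of bright spots are given beside this pattern. The 1066 brightest genes, by the recovered whole numbers, had median ratios of 0.57 on replicate 7, 0.48 on replicate 8 and 0.47 on replicate 3, and between -0.04 and 0.21 on the other 5 arrays, and TpnC73F lay at percentile 91.5 of brightness. On replicate 3, TpnC73F was at -0.09. After the loess curve TpnC73F was at 1.42 on replicate 7 and 0.30 on replicate 8, with a mean of -0.15. The part of brightness in the pattern was not tested further.

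Among 8 measured thick filament and titin-like genes, 5 passed as positive and 1 as negative, and the median ratio was 0.49 (0.30 without replicate 7, and 0.06 as deposited, where 2 passed on each side). The 5 became 3 without replicate 6, 3 with larvae in channel 1 alone or when centred on all spots, and 2 without replicate 8 or with adults in channel 1 alone. Over all genes, 29.2% passed as positive and 27.8% as negative, or 9.76% and 56.8% as deposited. With adults in channel 1 alone, 1970 of 10658 genes passed as positive. fln (flightin, a thick filament protein of the indirect flight muscle) was at 2.35 ± 0.68 (limma adjusted p = 9.31e-07) and positive on 8 of 8 arrays. Its ratio lay between those of TpnC4 and TpnC41C.

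The titin-like gene sls was at 1.03 ± 0.61, and Mlc2, the regulatory light chain of myosin, at 0.83 ± 1.01 with an adjusted p of 0.0266. When replicate 3 or replicate 8 was left out, Mlc2 no longer passed (adjusted p = 0.0706 and 0.080), and after the loess curve it was at 0.14 (adjusted p = 0.228). Without replicate 7 it passed with a ratio of 0.49, and as deposited it did not (0.39, adjusted p = 0.107). Mlc1, the essential light chain, was at 0.51 ± 0.73 and did not pass (adjusted p = 0.0607), though it did with replicate 1, 4 or 5 left out (adjusted p = 0.0458, 0.0445 and 0.0454). Its ratio was 0.26 without replicate 7 (adjusted p = 0.0719) and 0.07 as deposited (adjusted p = 0.711).

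Z-disc and attachment genes had a median ratio of 0.30 over the 9 measured, of which 4 passed as positive and 0 as negative. The median was -0.14 as deposited, with 1 gene past the threshold on each side, and with adults in channel 1 alone 2 genes passed as positive. On the negative side 1 gene passed without replicate 7. Among all genes 29.2% passed as positive and 27.8% as negative, or 9.76% and 56.8% as deposited. Zasp67 was at 0.98 ± 0.48, Actn (alpha-actinin) at 0.66 ± 0.59, and the integrin adhesion genes parvin and Ilk at 0.65 ± 0.36 and 0.31 ± 0.30. As deposited Actn stood at 0.22 (adjusted p = 0.184), parvin at 0.21 (adjusted p = 0.183) and Ilk at -0.12, none past the threshold. Actn also did not pass with adults in channel 1 alone (adjusted p = 0.139), nor Ilk after the loess curve (0.18, adjusted p = 0.0834). All 4 were below TpnC41C in mean ratio.

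Genes of excitation and calcium handling, which set the calcium that troponin C reads, had a median ratio of 0.30 over 8 measured, of which 4 passed as positive and 1 as negative. The negative call was lost with any 1 of replicates 2 to 8 left out, and the positive calls numbered 1 with adults in channel 1 alone and 2 without the dimmest spots (6 genes, median 0.11). After the loess curve the median was 0.13. The deposited scale put the median at -0.14 and gave 1 positive and 2 negative calls. On that scale 9.76% of all genes passed as positive and 56.8% as negative, against 29.2% and 27.8% with centring. Sclp had the largest ratio, 1.71 ± 0.61 (limma adjusted p = 1.38e-05). SERCA, the calcium pump of the sarcoplasmic reticulum, was at 0.71 ± 0.84 (adjusted p = 0.0103) and did not pass after the loess curve (0.17, adjusted p = 0.0637) or as deposited (0.27, adjusted p = 0.136). It was at 0.23 with adults in channel 1 alone (adjusted p = 0.609) and at 1.19 with larvae in channel 1 alone, where it passed. RyR, its calcium release channel, was at 0.57 ± 0.52 (as deposited 0.14, not past the threshold), and stj, a calcium channel subunit gene, at 0.44 ± 0.27, which was -0.00028 as deposited.

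Troponin C belongs to the EF-hand proteins, and 15 genes of other EF-hand calcium sensors were measured, with a median ratio of 0.24, or 0.14 without replicate 7 and 0.53 over the 10 left without the dimmest spots. Of these, 7 passed as positive and 1 as negative, or 2 as negative without replicate 1. The deposited scale gave 5 positive and 7 negative calls around a median of -0.19. For all genes the shares were 9.76% positive and 56.8% negative as deposited, and 29.2% and 27.8% with centring. The largest ratios were those of CanB, a calcineurin regulatory subunit, at 1.32 ± 0.39, CG13898 at 1.26 ± 0.42, Acam (androcam, a testis calmodulin-like protein) at 1.18 ± 0.42 and azot at 0.98 ± 0.31. The highest of these 15 mean ratios was below that of TpnC41C.

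Of 5 measured genes of flight muscle energy supply, 1 passed on each side. Their median of 0.26 was 0.02 without replicate 7, 0.17 without replicate 8 and -0.18 as deposited or after the loess curve. Over all genes, 29.2% passed as positive and 27.8% as negative. Gpdh1, the glycerol-3-phosphate dehydrogenase of the flight muscle shuttle and of fat body, was at -1.21 ± 0.73 (limma adjusted p = 0.000665), and its only positive array was replicate 7. Idh3a was at 0.28 ± 0.33 (adjusted p = 0.0468, lost with any 1 of replicates 2, 3, 5, 7 and 8 left out, and at -0.15 as deposited), ATPsynbeta at 0.28 ± 0.90 and Argk1, the arginine kinase gene, at 0.26 ± 0.63, with the last pair not past the threshold. ATPsynbeta stood at -0.15 and Argk1 at -0.18 as deposited, and Argk1 at -0.38 after the loess curve (adjusted p = 0.00158). Without replicate 7 they were at -0.015 and 0.074.

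**Figure D4:**
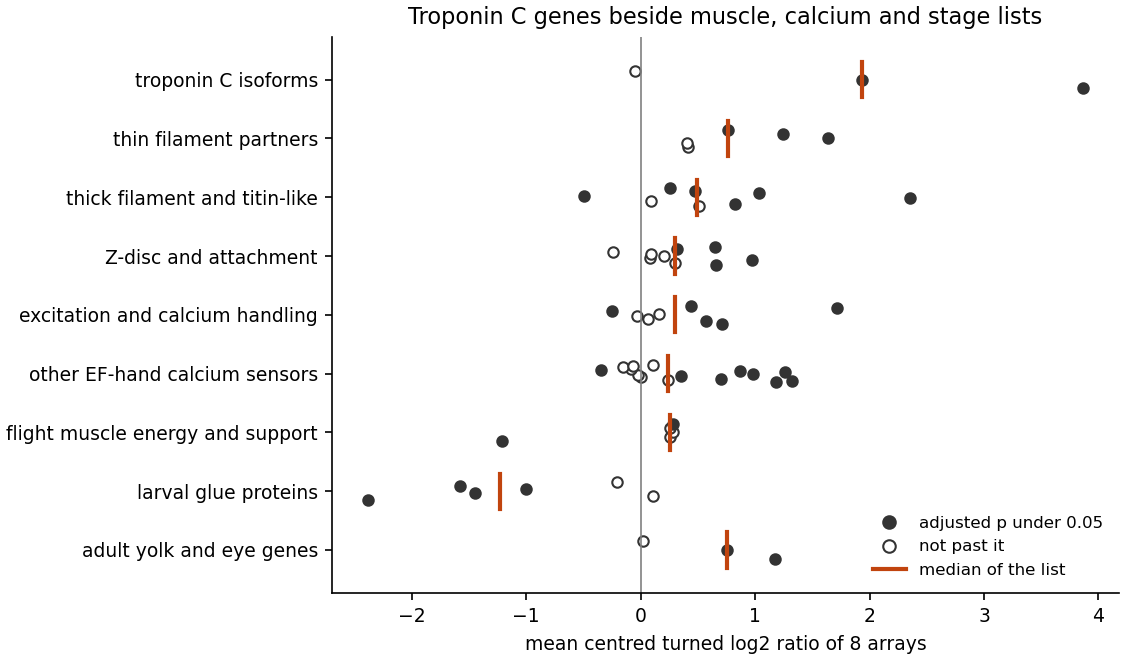
Mean centred turned log2 ratio over 8 arrays (horizontal axis) of every measured gene in 9 lists (rows), filled where the adjusted p was under 0.05, with the median of each list as a bar. TpnC4 at 3.87 lies farthest to the right of all genes drawn, and the larval glue proteins lie mostly to the left.

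The genes most like each member were named by the root mean square difference of the turned ratios over the 8 arrays. Nearest to TpnC4 were the cuticle protein genes Cpr49Ah (difference 0.40, mean ratio 3.91 ± 0.46), Cpr49Ae (0.49, mean 3.63 ± 0.23) and Cpr64Ac (0.53, mean 4.22 ± 0.29). Nearest to TpnC41C were CG10252 (0.18, mean 1.85 ± 0.47), tHMG1 (0.25, mean 1.88 ± 0.52) and CG13081 (0.26, mean 1.93 ± 0.31). None of these 6 is in the muscle lists.

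Nearest to TpnC73F were mod, the gene of the nucleolar protein modulo (0.18, mean 0.03 ± 0.73), COX5B, a cytochrome c oxidase subunit gene (0.20, mean 0.05 ± 0.71), and Tapdelta, a gene of the translocon (0.20, mean -0.04 ± 0.85). mod had 1.61 on replicate 7 and 0.60 on replicate 8, and COX5B 1.66 and 0.42, with the other 6 arrays of both below 0. These genes were chosen for this likeness and are in none of the muscle lists, and up and Tm2 ranked 376th and 352nd in likeness to TpnC73F. The measure counts a difference in level as well as in pattern over the arrays. TpnC73F differed from up by -0.47 ± 0.24 and from Tm2 by -0.46 ± 0.24, so these ranks do not speak to pattern alone. Without replicate 7 the ratios were -0.21 for mod, -0.20 for COX5B and -0.33 for Tapdelta, which then passed (limma adjusted p = 0.0407).

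The nearest measured genes on either side of each member were read from the order of genes in the RefSeq table. Beside TpnC4 lay CG30440 at 0.78 ± 0.20 and hrm at 1.32 ± 0.45, and beside TpnC41C lay CG14464 at 0.60 ± 0.39 and CG3107 at 0.43 ± 0.46, all 4 past the threshold on the positive side. Among all genes 29.2% passed on that side. As deposited CG14464 stood at 0.16 and CG3107 at -0.01 without passing, and CG3107 also lost its call with replicate 3, 6 or 8 left out (adjusted p = 0.0550, 0.0542 and 0.0807). Centred on all spots, CG3107 did not pass either (limma adjusted p = 0.101). With adults in channel 1 alone neither CG3107 (adjusted p = 0.142) nor CG14464 (adjusted p = 0.0501) passed, and CG3107 did not with larvae in channel 1 alone (adjusted p = 0.0807). The 3 spots of CG30440 gave 0.68, 1.09 and 0.57. These ratios were all well under those of the members they lie beside.

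Beside TpnC73F lay Pop5, an RNase P and MRP subunit gene, at -0.15 ± 0.16 (limma adjusted p = 0.130) and rogdi at 0.38 ± 0.50 (adjusted p = 0.0282). The call of rogdi was lost with replicate 6 or 8 left out (adjusted p = 0.0513 and 0.0885) and as deposited (-0.05). It was also lost when centred on all spots (0.25, adjusted p = 0.129) and after the loess curve (0.27, adjusted p = 0.0568). Neither orientation alone gave a call for rogdi (adults in channel 1, 0.66, adjusted p = 0.0533, and larvae in channel 1, 0.10, adjusted p = 0.612). The unmeasured TpnC47D lies between the cuticle protein genes Cpr47Ef at -0.46 ± 0.27 and Cpr47Eg at -2.18 ± 0.85, both on the negative side past the threshold. The unmeasured TpnC25D lies between CG14034 at -0.63 ± 0.39, on the negative side, and tkv, a receptor for the growth factor Dpp, at 0.89 ± 0.42, on the positive side, both past the threshold (tkv at 0.46, adjusted p = 0.0529, as deposited). Shares over all genes were 29.2% positive and 27.8% negative, or 9.76% and 56.8% as deposited, so such calls were common. Values of neighbours stand in for neither unmeasured gene.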

How the data were processed

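The deposited values were log2 ratios of the 2 channels of each spotted array, from images the authors took with an Axon 4000 scanner and GenePix and quantified in Spot 2.0, per the labels. No source used here gives the dyes, the numerator, the background handling or the spot filters. That the base is 2 follows from the values, since on each array every one of 20000 spots equalled log2 of a whole-number quotient within a relative tolerance of 1e-13. The number of arrays limits the precision.

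Of 12246 spots with 1 gene, 11771 matched a current gene in the RefSeq gene table (Release 6, used for names and gene order), and 475 kept the probe table's symbol. Arrays were centred on the median of these spots and the spots of a gene averaged. The limma 3.58.1 fit (R 4.3.3, lmFit and eBayes) held a stage and a dye column with 6 residual degrees of freedom, with Benjamini-Hochberg adjustment over all 10658 genes, and was tested on simulated data. Brightness was taken from both recovered whole numbers (their mean on the log2 scale, then the median over arrays). As these are in lowest terms, brightness is a lower bound, which limits the loess curve and the brightness filter too. Python 3.11.15 and matplotlib 3.10.9 were used for the rest.

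Members and lists were chosen with earlier results of these data known. Named genes are the members, all measured thin filament partners, up to 4 genes of each other list with the largest absolute ratio, the 3 genes most like each member and the nearest measured neighbours. Other genes of a list are given as counts. Alternatives were other centring, scaling, quantile normalization, a loess curve against brightness (span 0.4), array weights, no dye column, leaving out spots below quantile 0.25 of brightness, each orientation alone and each array left out. For the ratios of members they also held a fit among all spots, the exact sign-flip test and the median over arrays. No source used here says whether the probes separate the related troponin C, actin and cuticle protein genes, which makes values of single genes uncertain in that respect.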

Additional observations from a re-analysis of the deposited data

Results flagged for a closer look

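Within each set of 4 arrays of one orientation, the highest or lowest value was compared with the rest by Dixon's criterion at its 95% critical value, for the 3 members, their 3 differences and the 5 thin filament genes. Chance passes about 1 in 20 such sets, and 6 of 22 passed. On the arrays with adults in channel 1, replicate 7 stood apart from the other 3 for TpnC73F (1.62, the others from -0.64 to -0.41), up (2.03, the others from -0.35 to -0.03), Tm2 (2.15, from -0.43 to -0.24), Act88F (2.70, from 0.77 to 0.92) and Act87E (2.14, from -0.09 to 0.04). On the arrays with larvae in channel 1, replicate 3 stood apart for TpnC41C (2.64, the others from 1.37 to 1.57). No difference between members passed. Genes are not independent within an array, so the 5 values of replicate 7 are not 5 separate observations.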

How the results depend on the processing

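TpnC4 and TpnC41C kept their side and passed the threshold under 22 of 22 alternatives each, with ratios from 3.43 to 4.09 and from 1.499 to 2.11. For every member, the 22 include the median over arrays, which kept the adjusted p of the fit of all 8 arrays. Its call could not change, so it tests only the ratio. The 3 differences between members kept their direction under 13 of 13 alternatives each, with ranges of 3.78 to 4.33 (TpnC4 minus TpnC73F), 1.82 to 2.32 (TpnC41C minus TpnC73F) and 1.84 to 2.01 (TpnC4 minus TpnC41C). They passed in the 11 with at least 7 arrays, since 4 arrays allow no p below 0.125 in the sign-flip test. All 8 differences of each pair were above 0. Leaving arrays out, single orientations, scaling and quantile normalization keep the order of genes within an array. Direction and call were therefore fixed in advance for these, which bear only on the size of a difference. The loess curve alone could have changed the direction, and it did not. TpnC73F passed as deposited (-0.49), which left 1 member on the negative side, and did not pass in the other 21. Its sign turned with adults in channel 1 alone (0.033), and with 1 array left out it ran from -0.32 to 0.070. Counts over all genes moved from 3110 positive and 2967 negative to 2059 positive when centred on all spots, to 1040 and 6059 as deposited and to 1970 and 1105 (3075 in all) with adults in channel 1 alone. Centring on all spots put the median of all genes at -0.15. Centring on the median of genes was chosen after seeing the data.

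Of 51 other named genes, 24 kept their side and call under all alternatives run. As deposited, signs turned for up (-0.023), Tm2 (-0.032), Ilk (-0.12), stj (-0.00028), Idh3a and ATPsynbeta (-0.15 each), Argk1 (-0.18), Yp3 (-0.41), mod (-0.40), COX5B (-0.39), CG3107 (-0.011) and rogdi (-0.053). After the loess curve they turned for up (-0.36), Argk1 (-0.38) and mod (-0.080). Near 0, mod and COX5B also turned centred on all spots (-0.10 and -0.091), scaled (-0.12 and -0.10), quantile normalized (-0.10 and -0.087), with larvae in channel 1 alone (-0.059 and -0.076) and with array weights (-0.19 and -0.18), as did Yp3 centred on all spots (-0.11) and with larvae in channel 1 alone (-0.034). With 1 array left out, mod ran from -0.21 to 0.13, COX5B from -0.20 to 0.14, Tapdelta from -0.33 to 0.083 and ATPsynbeta from -0.015 to 0.43. The causes were not tested. No paired analysis was possible because no replicate number occurs in both orientations, so no replicate block could be fitted across arrays, while each ratio already sets both stages against each other on one array. The number of arrays and spots, 1 spot for each member, limits what could be seen.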
